A study of Homo sapiens with 20 samples.

Results

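NF-κB is a family of transcription factors, and the measurements below follow 10 genes that make up or report on it: the subunit genes NFKB1, NFKB2 and RELB, the inhibitors NFKBIA and TNFAIP3, the signalling genes BIRC3 and TRAF1, and the target genes TNFAIP2, ICAM1 and SOD2. The genes were listed by name, and every probe carrying one of these symbols in the annotation used was read. Of the 10 genes, 9 had a probe, with 14 probes in all, and 13 of these passed the detection filter among 21189 probes for 11864 genes. BIRC3 was not analysed here. A further NFKB2 probe (ILMN_2247868) was above background on 0 of 20 arrays and was not tested.

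The RNA came from 5 established human triple-negative breast cancer (TNBC) cell lines, which lack the estrogen and progesterone receptors and HER2. BT-549, MDA-MB-157 and MDA-MB-231 belong to the mesenchymal-like class, and SUM149 and MDA-MB-468 to the basal-like class. All cultures were starved for 24 h in RPMI without serum, and then either received wound-healing fluids (WHFs), a pool of the fluid that drains after breast surgery, at 5% for 48 h, or stayed unstimulated for the same time. Each treatment of a line had 2 cultures, which the labels call replicates A and B, for a total of 20 Illumina beadchip arrays in 10 groups of 2. The 2 cultures of a group belong to 1 cell line, so the p-values within and between lines measure the spread between cultures and not between tumors. Those of the average over the 5 lines measure the spread of the change between lines. MDA-MB-231 was alone on its chip, MDA-MB-468 and SUM149 lay on another, and BT-549 with MDA-MB-157 on the last. A difference in level between lines on different chips can therefore not be told apart from one between chips, whereas both treatments of a line were on 1 chip. Levels are log2 normalized signals, in which 1 unit is a 2-fold difference. A probe read as above background had a detection p under 0.05, and a gene was called when its limma p, adjusted by Benjamini-Hochberg over all 21189 probes, was under 0.1 and its change exceeded 2-fold. Levels of different probes are not compared. The arrays read whole cultures, so fewer cells carrying an RNA and less of that RNA per cell cannot be told apart.

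In resting cells, dimers of NF-κB subunits are held in the cytoplasm by IκB proteins. Receptors for tumor necrosis factor, interleukin-1 and bacterial products activate a kinase complex that marks IκBα for destruction, and the freed dimers enter the nucleus and bind κB sites in DNA. Many of the genes switched on in this way feed back on the pathway: NFKBIA encodes IκBα itself, TNFAIP3 encodes the ubiquitin-editing enzyme A20, and NFKB1, NFKB2 and RELB renew the subunits. In breast cancer, NF-κB activity is best known in basal-like and triple-negative tumors, where it drives inflammatory cytokines and survival genes.

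The κB sites close to the start sites of these feedback genes are shown because they are the sequences that the subunits bind. The 10-base κB consensus was searched on both strands in RefSeq windows from 250 bases upstream to 50 bases downstream of each transcription start (build GRCh38.p14). Of the 9 measured genes, 8 had a window and 4 had a match, whereas 7.09% of 27305 genes with windows, and 5.91% of 35116 windows, held one. Matches may overlap, and those below are in capitals within 5′ to 3′ sequence on the strand of the gene.
NFKB1, chr4:102501285-102501344, plus strand: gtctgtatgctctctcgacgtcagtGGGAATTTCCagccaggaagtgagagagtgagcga
NFKB2, second start site, chr10:102394446-102394534, plus strand: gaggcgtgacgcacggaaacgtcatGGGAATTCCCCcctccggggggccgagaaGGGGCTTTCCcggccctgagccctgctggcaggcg
NFKBIA, chr14:35404796-35404855, minus strand: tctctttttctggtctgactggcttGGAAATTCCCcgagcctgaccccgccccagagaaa
TNFAIP3, chr6:137867167-137867238, plus strand: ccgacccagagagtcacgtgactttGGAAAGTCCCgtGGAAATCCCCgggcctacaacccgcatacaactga
The NFKB1 site began 49 bases upstream of the start, the NFKBIA site 81 bases upstream, and the TNFAIP3 sites 67 and 55 bases upstream. In NFKB2 the sites began 107, 106 and 78 bases upstream of its second start, with the first pair overlapping, and a further pair of matches lay near another start. The windows of TNFAIP2, TRAF1, ICAM1 and SOD2 held no match of these letters. Sites that differ from the consensus or lie outside the windows were not searched. A match is a description of the sequence, as no binding was measured on these arrays.

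Untreated cultures differed in every measured gene. The mean level was highest in SUM149 for 5 genes and in MDA-MB-231 for 4, and lowest in MDA-MB-157 for 8 and in BT-549 for TNFAIP2. Some of these ranks were near ties, such as the lowest for NFKBIA, where MDA-MB-157 did not separate from MDA-MB-468 (limma adjusted p = 0.909). All 9 genes passed the limma F test over the 5 untreated lines (adjusted p under 0.1), as did 91.3% of all genes tested, so the count itself is close to the background. MDA-MB-231 and SUM149 stood at the top for NFKB1, NFKB2, NFKBIA, TNFAIP3, TNFAIP2 and TRAF1.
Untreated NFKB1, the gene of the p105 precursor and its p50 product, was 13.08 and 12.99 in SUM149, 12.57 and 12.24 in MDA-MB-231, 11.39 and 11.24 in MDA-MB-468, 11.11 and 11.20 in BT-549 and 10.88 and 10.79 in MDA-MB-157. The last 3 lines lay closest together. BT-549 did not differ from MDA-MB-468 (adjusted p = 0.505) or from MDA-MB-157 (adjusted p = 0.163) beyond the spread of replicates, whereas MDA-MB-157 lay below MDA-MB-468 (adjusted p = 0.0401). Untreated ICAM1, a surface adhesion molecule that binds leukocyte integrins, was 10.07 and 10.04 in MDA-MB-231, far above the 7.64 and 8.32 of BT-549, the 7.35 and 6.92 of SUM149, the 6.21 and 7.0 of MDA-MB-468 and the 6.67 and 6.46 of MDA-MB-157. The bottom 3 of these lines did not separate from each other in any pairwise test. Untreated SOD2, the mitochondrial superoxide dismutase, was read on its brightest probe, ILMN_2336781. It ran from 10.09 ± 0.05 (SD, n = 2) in MDA-MB-157 to 14.67 ± 0.14 in SUM149, and all 5 lines separated from each other. On the SOD2 probe ILMN_1792922, BT-549 did not separate from MDA-MB-231 (limma adjusted p = 0.211), nor MDA-MB-157 from MDA-MB-468 (limma adjusted p = 0.724).
Between MDA-MB-231 and SUM149, the untreated levels of NFKB2, RELB, NFKBIA, TNFAIP3 and TNFAIP2 were not distinguishable, with adjusted p-values of 0.619, 0.305, 0.255, 0.212 and 0.551. TRAF1, an adaptor of tumor necrosis factor receptors, did separate them, at 9.31 and 9.16 in MDA-MB-231 against 7.27 and 7.38 in SUM149.
Lines that shared a chip differed as well. On the chip of the basal-like lines, 8 of 9 genes were lower in untreated MDA-MB-468 than in SUM149 and none was higher, with ICAM1 the exception (limma adjusted p = 0.187). Over all genes, 61% differed between these lines in one direction or the other. On the other shared chip, untreated BT-549 was above MDA-MB-157 in 7 genes and below it in 1, TNFAIP2, against 62.2% of all genes that differed either way. NFKB1 was the gene that did not separate BT-549 from MDA-MB-157.

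**Figure D1:**
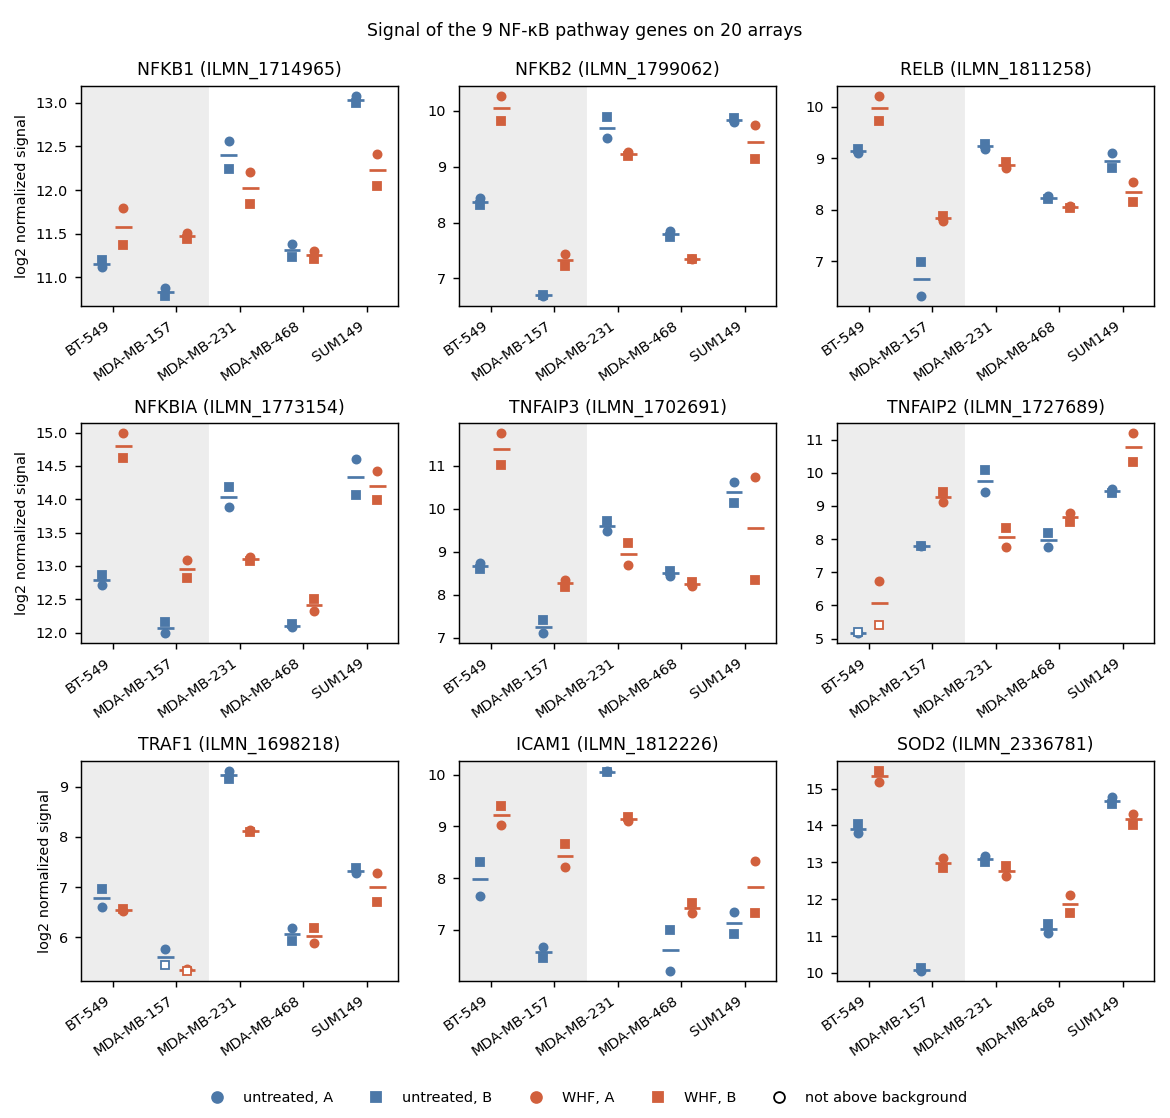
Log2 normalized signal (vertical axis) of the 9 genes on all 20 arrays, with 1 probe per gene, by line (horizontal axis). Blue is untreated and red WHF, circles are replicate A and squares replicate B, bars are means of 2 arrays, open symbols are not above background, and grey shading marks BT-549 and MDA-MB-157, where the red means lie above the blue for every gene except TRAF1.

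WHFs raised 5 of the 9 genes in BT-549 and 4 in MDA-MB-157, and lowered 2 in MDA-MB-231. In BT-549, NFKB2, NFKBIA, TNFAIP3, ICAM1 and SOD2 were called higher, which is 5 of 9 genes where 4.78% of all genes were called higher, and 0 of 9 were called lower (7.21% of all genes). In MDA-MB-157, RELB, TNFAIP2, ICAM1 and SOD2 were called higher, 4 of 9 against 1.19% of all genes, and 0 were called lower (1.69%). In MDA-MB-231 none was called higher (2.69% of all genes) and 2, TNFAIP2 and TRAF1, were called lower (4.51%).
The basal-like lines had 1 call between them. No gene was called in MDA-MB-468, where 0.995% of all genes were higher and 0.944% lower by the same rule, and SOD2 was the 1 gene of 9 under an adjusted p of 0.1 there without the 2-fold requirement. In SUM149, TNFAIP2 was called higher, 1 of 9 against 3.6% of all genes, and none was called lower (7.76%).
Without the 2-fold requirement, 7 genes rose in BT-549 (all except NFKB1 and TRAF1) and 7 in MDA-MB-157 (all except TNFAIP3 and TRAF1). NFKBIA, TNFAIP2, TRAF1 and ICAM1 fell in MDA-MB-231, and NFKB1, RELB and SOD2 fell in SUM149. The share of all genes at this looser threshold was not counted in any line, so these counts are not set against a background. In BT-549, TNFAIP2 was above background on 0 untreated arrays and 1 treated array. The median log2 change of the 9 genes was 1.23 in BT-549 and 1.01 in MDA-MB-157, against −0.65 in MDA-MB-231, −0.03 in MDA-MB-468 and −0.39 in SUM149. Over all genes tested, the median lay between −0.04 and 0.01 in every line. In 3 lines the sign held in both replicates: 8 of 9 differences between the arrays of the same letter were positive in A and in B in BT-549 and in MDA-MB-157, and 0 of 9 in either replicate of MDA-MB-231. In MDA-MB-468 the median turned, from −0.08 in A (4 of 9 positive) to 0.25 in B (5 of 9). In SUM149 it was −0.06 in A (4 of 9 positive) and −0.66 in B (2 of 9).

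**Figure D2:**
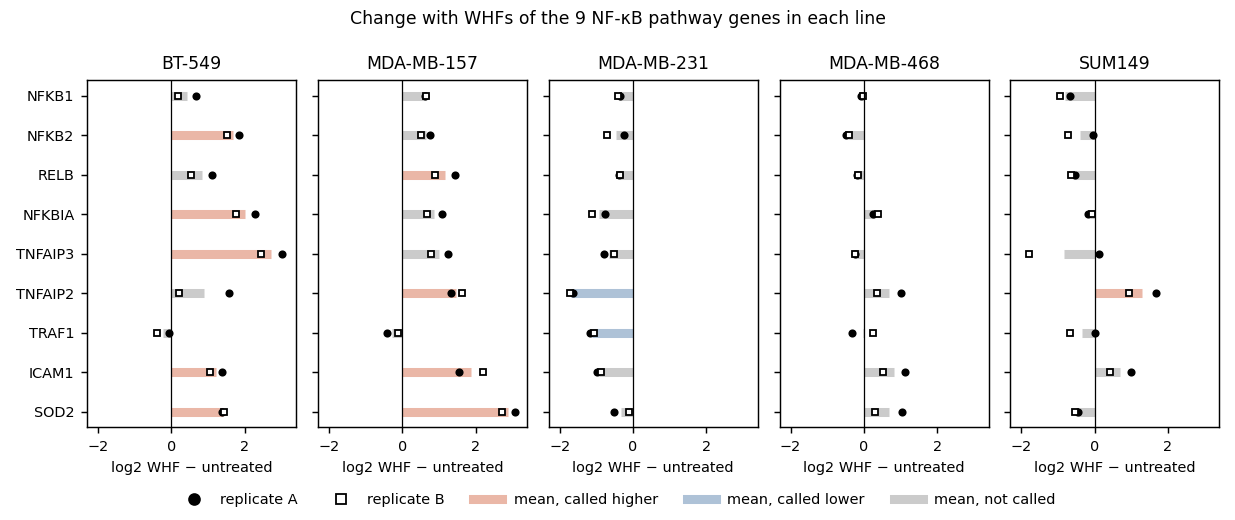
Log2 difference of WHF-treated minus untreated signal (horizontal axis) for the 9 genes (rows) in each of the 5 lines (panels). Bars are means of 2 replicates, coloured where the change was called, filled circles are replicate A and open squares replicate B, and in MDA-MB-231 every symbol lies left of 0.

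Among the subunit genes, NFKB2 and RELB were called higher in 1 line each and NFKB1 in none. NFKB2 encodes p100, which is cut to p52, the partner of RelB in the noncanonical arm of the pathway. In BT-549, NFKB2 was 8.44 and 8.31 in untreated cells and 10.27 and 9.82 with WHFs, a rise of 3.18-fold (log2 1.67 ± 0.20 SE, adjusted p = 3.21e-05). MDA-MB-157 went from 6.69 and 6.71 to 7.44 and 7.23, which is a smaller shift of 0.64 (adjusted p = 0.0823) that did not reach 2-fold. In these lines the treated and untreated arrays did not overlap. The other lines were lower with WHFs, from 9.51 and 9.89 to 9.25 and 9.19 in MDA-MB-231, from 7.85 and 7.75 to 7.35 and 7.35 in MDA-MB-468 and from 9.80 and 9.86 to 9.75 and 9.13 in SUM149, and none of these 3 differences passed the test (adjusted p from 0.118 to 0.276). The second tested NFKB2 probe (ILMN_2390859) gave 1.54 in BT-549, also called, and 0.57 in MDA-MB-157, and the 2 probes correlated at r = 0.96 over the 10 paired differences.
RELB, the subunit that pairs with p52, was 6.33 and 6.98 in untreated and 7.78 and 7.88 in WHF-treated MDA-MB-157, 2.26-fold higher (adjusted p = 0.0045). BT-549 went from 9.09 and 9.18 to 10.21 and 9.72, a rise of 0.83 that passed the p-value threshold (adjusted p = 0.00873) and stayed under 2-fold. The call in MDA-MB-157 rested on untreated replicate A, the lower of its untreated arrays: without it the change was 0.85, and without background correction it was 0.71, both under 2-fold. In BT-549 the change without WHF replicate B was 1.07 (adjusted p = 0.00609), which was called. In SUM149, RELB fell by 0.60 (log2, adjusted p = 0.0483), with all treated arrays below the untreated ones, at 8.54 and 8.15 against 9.10 and 8.81. MDA-MB-231 and MDA-MB-468 gave −0.36 and −0.18, neither past the threshold.
NFKB1 moved less and was not called in any line. With WHFs it was 11.51 and 11.44 in MDA-MB-157 against 10.88 and 10.79 untreated, up 0.64 (adjusted p = 0.0568). SUM149 went the other way, from 13.08 and 12.99 to 12.41 and 12.05, a fall of 1.75-fold (adjusted p = 0.00496). In neither line did the arrays of the treatments overlap. BT-549 was at 11.11 and 11.20 and then 11.80 and 11.37, 0.43 with an adjusted p of 0.101, which misses the threshold narrowly, and MDA-MB-231 and MDA-MB-468 gave −0.38 and −0.05.

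The inhibitors gave the largest rises in BT-549 when 1 probe per gene was read. The SOD2 probes not read by that rule rose there by 2.19 (log2, ILMN_2406501) and 3.26 (ILMN_1792922). NFKBIA was 12.72 and 12.86 in untreated BT-549 and 14.99 and 14.61 with WHFs, 4.03-fold higher (log2 2.01 ± 0.21 SE, adjusted p = 8.43e-06). In MDA-MB-157 it went from 11.99 and 12.15 to 13.08 and 12.82, 1.84-fold (adjusted p = 0.0221). MDA-MB-231 fell from 13.88 and 14.19 to 13.13 and 13.07, 1.91-fold (adjusted p = 0.006). The treated and untreated arrays of these 3 lines did not overlap, and the changes in MDA-MB-157 and MDA-MB-231 passed the p-value threshold without reaching 2-fold. With median scaling in place of quantile normalization, or without its WHF replicate B, the MDA-MB-157 change was 1.01 and was called. Without untreated replicate A of MDA-MB-231, the fall there was called too (−1.09, adjusted p = 0.0139). NFKBIA was 12.09 and 12.12 and then 12.33 and 12.50 in MDA-MB-468, and 14.61 and 14.07 and then 14.43 and 13.98 in SUM149, where the arrays overlapped, and neither difference passed.
TNFAIP3 encodes A20, which removes the ubiquitin chains that carry the signal toward the kinase complex. It was 8.74 and 8.59 in untreated BT-549 and 11.76 and 11.03 with WHFs, 6.62-fold higher (log2 2.73 ± 0.49 SE, adjusted p = 0.000841). MDA-MB-157 went from 7.11 and 7.42 to 8.36 and 8.19, 1.01 (adjusted p = 0.287). SUM149 was 10.63 and 10.14 untreated and 10.75 and 8.35 with WHFs. The WHF arrays of SUM149 disagreed, with replicate A above both untreated arrays and replicate B far below them. The error of TNFAIP3 is estimated over all 10 groups, this one included. Without SUM149 WHF replicate A, TNFAIP3 in SUM149 was −2.03 (adjusted p = 0.000119) and called lower, without replicate B it was 0.36, and without either of them the unchanged MDA-MB-157 value had an adjusted p of 0.0187 and was called. MDA-MB-231 and MDA-MB-468 gave −0.65 and −0.25, which did not pass.

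TRAF1 did not follow the other genes in BT-549 and MDA-MB-157. It was 6.61 and 6.96 and then 6.53 and 6.55 in BT-549, with −0.24 (adjusted p = 0.405), and in MDA-MB-157 it was above background on 1 of 4 arrays. MDA-MB-231 had the highest level of the 5 lines and there TRAF1 fell from 9.31 and 9.16 to 8.14 and 8.10, 2.17-fold (adjusted p = 0.00136). The 4 arrays of MDA-MB-231 did not overlap between treatments. Without background correction the fall was 0.90 on the log2 scale, still past the p-value threshold and under 2-fold. The second TRAF1 probe (ILMN_2171789) was dimmer, did not exceed background in MDA-MB-468 (0 of 4 arrays), and gave −0.80 in MDA-MB-231 (adjusted p = 0.0264), or −1.11 and called without WHF replicate A. In MDA-MB-468 and SUM149 the main probe gave −0.03 and −0.34, neither past the threshold.

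The 3 target genes rose in MDA-MB-157, by 2.78-fold to 7.44-fold. ICAM1 was 6.67 and 6.46 in untreated and 8.21 and 8.66 in WHF-treated MDA-MB-157, 3.65-fold higher (adjusted p = 0.00304). In BT-549 it went from 7.64 and 8.32 to 9.03 and 9.38, 2.34-fold (adjusted p = 0.00981). MDA-MB-231, the line with the highest untreated ICAM1, went down from 10.07 and 10.04 to 9.10 and 9.18 (adjusted p = 0.0589), short of 2-fold. These 3 lines started at means of 6.57, 7.98 and 10.06 and ended at 8.43, 9.21 and 9.14. The basal-like lines were higher with WHFs in both replicates, at 7.33 and 7.52 against 6.21 and 7.0 in MDA-MB-468 and at 8.32 and 7.33 against 7.35 and 6.92 in SUM149, and neither passed (adjusted p = 0.195 and 0.13). In SUM149 the arrays overlapped, and without WHF replicate B the change was 1.19 and called (adjusted p = 0.0246). The ICAM1 call in BT-549 was lost without untreated replicate A (0.89, adjusted p = 0.12), and without background correction the change was 0.97, just under 2-fold.
TNFAIP2, first described as a gene induced by tumor necrosis factor in endothelial cells, divided the lines in another way. It rose from 7.79 and 7.79 to 9.11 and 9.41 in MDA-MB-157 (2.78-fold, adjusted p = 0.0284) and from 9.52 and 9.40 to 11.19 and 10.33 in SUM149 (2.46-fold, adjusted p = 0.0167). It fell from 9.42 and 10.07 to 7.77 and 8.35 in MDA-MB-231 (3.22-fold, adjusted p = 0.0052). No arrays overlapped between treatments in these 3 lines. In BT-549, TNFAIP2 was not well above background on either untreated array (5.16 and 5.19) and was above it on 1 of 2 treated arrays, at 6.73, with the other at 5.40, so no fold is given for that line. Without the dimmer treated array, replicate B, the probe was called higher there (1.56, adjusted p = 0.00549), with 1 treated array left. MDA-MB-468 went from 7.77 and 8.18 to 8.77 and 8.53 (adjusted p = 0.382). The call in SUM149 was lost without WHF replicate A (0.87, adjusted p = 0.127), and the call in MDA-MB-157 was lost without any 1 of its 4 arrays, with adjusted p from 0.121 to 0.153 and changes from 1.32 to 1.62.
SOD2 detoxifies superoxide in mitochondria and is a well-known NF-κB target. On its brightest probe (ILMN_2336781) it was 10.06 and 10.12 in untreated and 13.12 and 12.85 in WHF-treated MDA-MB-157, 7.44-fold higher (log2 2.90 ± 0.20 SE, adjusted p = 9.99e-07). In BT-549 the probe went from 13.79 and 14.03 to 15.18 and 15.48, 2.67-fold (adjusted p = 9.70e-05). Treated and untreated arrays were far apart in both lines. MDA-MB-468 rose from 11.08 and 11.32 to 12.11 and 11.63 (adjusted p = 0.0759) and SUM149 fell from 14.77 and 14.57 to 14.31 and 14.02 (adjusted p = 0.0732), both under 2-fold. MDA-MB-231 gave −0.32 and did not pass. The brightest array for any of these probes read 57644.5 before normalization, below the 67691.5 reached by the brightest probe of the array set. Whether so bright a signal understates a change was not tested.
The other SOD2 probes differed in what they could resolve. ILMN_2406501 tracked the first (r = 0.98 over the 10 paired differences) and was called higher in BT-549 (2.19) and MDA-MB-157 (3.26). ILMN_1792922 rose from 6.75 and 7.58 to 10.34 and 10.51 in BT-549, 9.60-fold, while in MDA-MB-157 it was above background on 0 of 2 untreated and 1 of 2 treated arrays and was not called. It correlated with the others at 0.40 and 0.54. In MDA-MB-468 it was not well above background on any of 4 arrays. Without untreated replicate A of MDA-MB-231 it was called higher in that line (1.37, adjusted p = 0.0356), and ILMN_2406501 was called lower in SUM149 without WHF replicate A (−1.02, adjusted p = 0.0162).

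**Figure D3:**
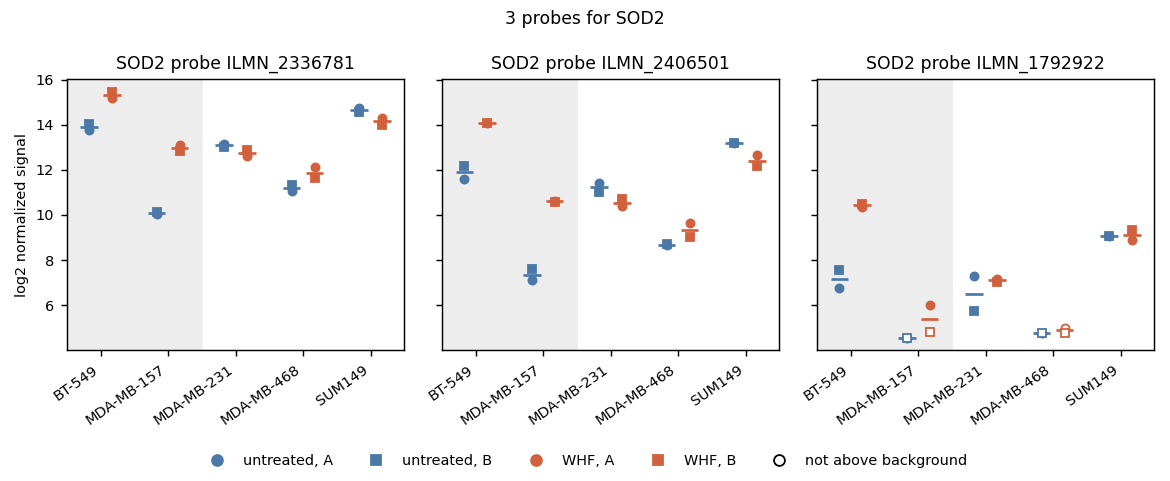
Log2 normalized signal (vertical axis) of the 3 SOD2 probes on all 20 arrays by line (horizontal axis), with symbols, bars of 2-array means and shading as in the plot of the 9 genes. The probes named ILMN_2336781 and ILMN_2406501 rise with WHFs in both shaded lines, whereas ILMN_1792922 rises clearly in BT-549 and is near background in MDA-MB-157 and MDA-MB-468.

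The response differed between the 5 lines for all 9 genes by limma's F test of the 4 terms for line and treatment together (adjusted p under 0.1), and for 12 of 13 tested probes, where 45.7% of all genes did. The F statistic was largest for SOD2 (50.7, adjusted p = 1.59e-05) and NFKBIA (28.6, adjusted p = 8.68e-05) and smallest for TRAF1 (4.51, adjusted p = 0.0453). The 1 probe that did not pass was the dim TRAF1 probe (adjusted p = 0.251).
BT-549 and MDA-MB-157 were set against the other lines with results of these data already known, and they share a chip, so the split is described and not tested. All 4 of their paired differences lay above all 6 of SUM149, MDA-MB-231 and MDA-MB-468 for NFKB1, NFKB2, RELB, NFKBIA, TNFAIP3 and SOD2. That is 6 of 9 genes with 1 probe per gene, against 2.55% of all genes tested. The SOD2 probe ILMN_1792922 overlapped, with a lowest difference of 0.22 in BT-549 and MDA-MB-157 and a highest of 1.29 elsewhere. No gene lay wholly below.
The mean difference was 2.16 in this pair of lines against −0.05 in the other 3 for SOD2, 1.87 against −0.58 for TNFAIP3, and 1.44 against −0.25 for NFKBIA. The 6 genes were not equally far apart. The gap was narrow for SOD2, whose lowest difference in BT-549 and MDA-MB-157 was 1.39 and whose highest elsewhere was 1.03, in MDA-MB-468 replicate A. It was narrower still for NFKBIA, at 0.66 against 0.38, and for NFKB1, at 0.17 against −0.03. NFKB2 had 0.52 against −0.06, TNFAIP3 0.77 against 0.11 and RELB 0.54 against −0.17. ICAM1, TNFAIP2 and TRAF1 overlapped: the ICAM1 difference of MDA-MB-468 replicate A was 1.12, and the TNFAIP2 difference of SUM149 replicate A was 1.67, above both of MDA-MB-157.

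Averaged over the 5 lines, none of the 9 genes was called (adjusted p under 0.1, limma on the means of A and B with the line as a block), where 0.0927% of all genes were. At an unadjusted p under 0.05 there was 1, TRAF1, with a mean change of −0.40 (limma, adjusted p = 0.252). The share of all genes at that looser threshold was not counted. The TRAF1 change was largest in MDA-MB-231 (−1.12), and in MDA-MB-157 the probe was above background on 1 untreated array and 0 treated arrays. The mean change was positive for 7 of 9 genes, up to 0.83 ± 0.45 (SE over 5 lines) for SOD2. The lines ranged from −0.50 in SUM149 to 2.90 in MDA-MB-157 for that gene. The median over the 9 genes was 0.40, against −0.02 over all genes.

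The order of the line means also changed with WHFs. With WHFs, BT-549 held the highest level for 6 genes, SUM149 for 2 and MDA-MB-231 for 1, whereas no gene had been highest in BT-549 before treatment. MDA-MB-468 was the lowest for 5 genes, MDA-MB-157 for 3 and BT-549 for 1. These counts rank means of 2 arrays from different chips, and some ranks were near ties. WHF-treated ICAM1 averaged 9.21 ± 0.25 (SD) for BT-549 against 9.14 ± 0.05 for MDA-MB-231. The lowest TNFAIP3 means with WHFs were 8.26 for MDA-MB-468 and 8.27 for MDA-MB-157. Before treatment, RELB did not separate BT-549 from the top line, MDA-MB-231 (limma adjusted p = 0.751). The WHF lead of BT-549 was wider for SOD2, at 15.33 against 14.17 for SUM149. The distance between the highest and the lowest line shrank for 6 genes and grew for 3. It went from 2.20 to 0.97 on the log2 scale for NFKB1, from 3.49 to 1.78 for ICAM1 and from 4.58 to 3.46 for SOD2 (ILMN_2336781). The distance also shrank on SOD2 probe ILMN_2406501, from 5.83 to 4.74, whereas on ILMN_1792922 it grew from 4.52 to 5.55. For NFKBIA it went from 2.26 to 2.39, for TNFAIP3 from 3.12 to 3.14 and for TNFAIP2 from 4.57 to 4.70. These distances come from the same arrays as the changes and were not tested.
The changes of the 9 genes correlated to unequal degrees, and correlations between pairs of other genes were not computed for comparison. Over the 10 paired differences, which share arrays and lines, the 36 gene pairs had Pearson correlations from 0.30 (RELB with TRAF1) to 0.97 (NFKB2 with TNFAIP3), with a median of 0.66.
Replicates of WHF-treated SUM149 stood apart for these genes. Replicate A lay above replicate B in 9 of 9 genes, by a median of 0.58, where 52.9% of all genes did, by a median of 0.03. In the untreated SUM149 cultures, A lay above B in 7 of 9 (49.5% of all genes), by a median of 0.20. WHF-treated BT-549 showed 6 of 9 (50.5% of all genes) and 0.43. The median distance between A and B, whatever its sign, was 0.12 to 0.21 for the 9 genes in WHF-treated MDA-MB-157, MDA-MB-231 and MDA-MB-468, and 0.28 for all genes in WHF-treated SUM149. For all genes it was 0.15 to 0.22 in the other WHF-treated groups, so SUM149 was the widest there too. WHF replicate B of SUM149 also had the fewest probes above background of the 20 arrays (19693).

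Further genes of the pathway were read from 3 lists. Of 7 other subunits and IκB proteins, 2 were called higher in BT-549 and 1 each in MDA-MB-157, MDA-MB-468 and SUM149, and none was called lower in any line. Of all genes, 4.78%, 1.19%, 0.995% and 3.6% were called higher in these lines in that order. The 1 gene called in 3 lines was BCL3, an IκB-like protein that works in the nucleus with p50 and p52, at 1.97 in MDA-MB-157, 1.19 in MDA-MB-468 and 1.66 in SUM149 (log2) and 0.03 in BT-549. NFKBIZ, another nuclear IκB protein, and NFKBIE, which encodes IκBε, were called in BT-549, at 1.19 and 1.40. NFKBIB, which encodes IκBβ, was 0.78 in BT-549, 0.85 in MDA-MB-157 and −0.88 in SUM149, with 0 calls. NFKBID was 0.74 in BT-549 and −0.28 in MDA-MB-157, also with 0 calls. The remaining pair of subunits, RELA and REL, had 0 calls, and their responses did not pass the F test between lines (adjusted p = 0.623 and 0.476).
Of 35 receptors, adaptors, kinases and regulators of the pathway, which include inhibitors such as CYLD and TNIP1, 29 were tested. BT-549 had 3 higher and 2 lower, MDA-MB-157 had 3 higher, SUM149 had 1 higher and 2 lower, MDA-MB-468 had 1 higher, and MDA-MB-231 had none. TNIP1 was 1 of the 3 higher in BT-549 (1.30). The calls in SUM149, at 3.45% higher and 6.9% lower, and those lower in BT-549, also 6.9%, were close to the 3.6%, 7.76% and 7.21% of all genes. The higher calls were 10.3% of the list in BT-549 against 4.78% of all genes, 10.3% in MDA-MB-157 against 1.19%, and 3.45% in MDA-MB-468 against 0.995%. IRAK2, a kinase-like protein of the interleukin-1 and Toll-like receptor pathway, rose in BT-549 (1.82), MDA-MB-157 (1.31) and SUM149 (1.12). The co-receptor gene IL1RAP rose in BT-549 (1.08) and MDA-MB-157 (1.51), and the receptor gene IL1R1 in MDA-MB-157 (1.13) and MDA-MB-468 (1.09). MYD88, the adaptor that links these receptors to the IRAK proteins, fell in BT-549 (−2.19) and SUM149 (−1.55), and RBCK1, a subunit of the linear ubiquitin ligase, fell in SUM149 (−2.28). The list median was 0.17 in BT-549 and 0.15 in MDA-MB-157, close to all genes.
Of 36 other NF-κB target genes, 32 were tested. BT-549 had 14 higher and 1 lower, MDA-MB-157 had 7 higher and 0 lower, MDA-MB-231 had 2 higher and 6 lower, MDA-MB-468 had 2 higher and 1 lower, and SUM149 had 6 of each. The higher calls were 43.8% of the list in BT-549 and 21.9% in MDA-MB-157, against 4.78% and 1.19% of all genes. MDA-MB-231 had 6.25% higher and 18.8% lower, against 2.69% and 4.51%, and SUM149 had 18.8% each way, against 3.6% and 7.76%. In MDA-MB-468 the shares were 6.25% and 3.12%, against 0.995% and 0.944%, and the lower share in BT-549 was 3.12% against 7.21%. The list medians were 0.60 in BT-549, 0.30 in MDA-MB-157, −0.35 in MDA-MB-231, −0.02 in MDA-MB-468 and −0.14 in SUM149. Each list is described and not tested as a set.
CXCL1 and CXCL2 encode chemokines that attract neutrophils, and IL6 encodes the cytokine interleukin-6. CXCL2 rose in BT-549 (2.33) and MDA-MB-157 (3.27) and fell in SUM149 (−2.14). IL6 did the same, at 2.98, 2.59 and −2.38. CXCL1 rose in BT-549 (1.19) and MDA-MB-157 (2.38) and fell in MDA-MB-231 (−1.33). CCL2, which attracts monocytes, rose in BT-549 (1.99) and MDA-MB-157 (1.02) and fell in MDA-MB-231 (−1.99). PTGS2, the inducible cyclooxygenase, rose in BT-549 (3.36) and MDA-MB-231 (1.43) and fell in SUM149 (−1.97). CCL20 in BT-549 (4.88) and CXCL8 in MDA-MB-157 (4.73) were the highest points of the list, and these genes are named after their values were seen.
For 6 of these 32 genes, 3 of the 29 and 2 of the 7, all differences in BT-549 and MDA-MB-157 lay above those of the other lines, as for 2.55% of all genes. Of the target genes, 1, GADD45B, a stress-response gene named after its values were seen, lay wholly below. The response differed between lines by the F test for 24 of 32, 16 of 29 and 5 of 7 genes, against 45.7% of all genes, and the 55.2% of the 29 was close to that share.

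**Figure D4:**
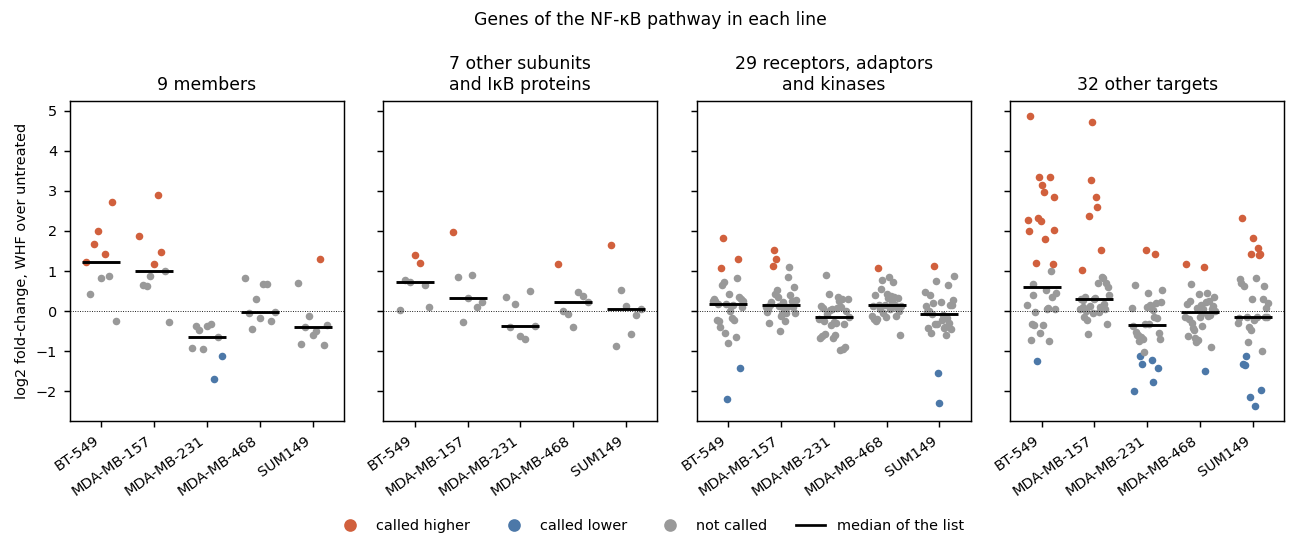
Log2 fold-change of WHF-treated over untreated cultures (vertical axis) for each tested gene (points) of 4 groups of NF-κB pathway genes (panels) in the 5 lines (horizontal axis). Red points were called higher, blue points lower and grey points neither, bars are medians, and the 9 genes of the first panel have medians of 1.23 and 1.01 in BT-549 and MDA-MB-157 and −0.65 in MDA-MB-231.

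Genes outside these lists were ranked by how closely they tracked the mean of the 9 genes over the 10 paired differences, among 3807 genes that varied enough (SD of at least 0.5). The closest was KYNU, an enzyme of tryptophan breakdown (r = 0.98), which was 1.02 in BT-549, 1.20 in MDA-MB-157 and −1.17 in MDA-MB-231, all called. CITED4, a transcriptional co-activator, followed (r = 0.97), also called in these 3 lines, at 1.10, 1.27 and −1.10. The next were KRABD3 (r = 0.97), FAIM (r = 0.97) and the chromatin assembly factor gene CHAF1A (r = 0.95), which were all called lower in MDA-MB-231 and in no other line. AP5Z1, TRIM16 and PINX1 were at r = 0.93. The correlations come from 10 differences in 5 lines, and the genes were picked for being the highest of many.

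As WHFs are a body fluid, markers of blood cells were read beside these results. Of the 14 leukocyte and red cell markers, 5 were above background on none of the 20 arrays (PTPRC, CD3D, CD3E, TYROBP and FCER1G, genes of leukocytes, T cells and myeloid cells), 1 on all 20 and 8 on some. The 1 on all 20 was FCGR3B, a neutrophil Fc receptor, whose level was 0.14 to 0.39 higher with WHFs in 5 of 5 lines, with no change past the test (adjusted p from 0.256 to 0.703). CD2, a T cell gene, was above background on 13 arrays, including 4 of 4 of BT-549, and 0.08 to 0.59 higher in 5 of 5 lines (adjusted p from 0.213 to 0.912). CD79A, a B cell gene, was above background on 15 arrays and higher in 2 of 5 lines. Of these 14 markers, 5 to 9 per line were above background on 0 of 4 arrays. Their summed normalized signal ran from 792 to 822 in untreated and from 839 to 863 in WHF-treated BT-549, from 897 to 913 and from 917 to 1005 in MDA-MB-157, from 872 to 899 and from 807 to 910 in MDA-MB-231, from 745 to 809 and from 855 to 888 in MDA-MB-468, and from 873 to 971 and from 986 to 1238 in SUM149. HBA2, a hemoglobin gene, was called higher in SUM149, and CSF1R was called higher in MDA-MB-468 and lower in MDA-MB-231. Their part in the results was not tested.
Of the 6 epithelial markers, all were above background on both arrays of each group of MDA-MB-468 and SUM149, and 0 to 3 on those of the mesenchymal-like lines. Of the 5 mesenchymal markers, 3 to 5 were so in the groups of the mesenchymal-like lines, 3 in SUM149 and 1 in MDA-MB-468. The mesenchymal gene VIM was above background on all 20 arrays. Its untreated level was 15.39 to 15.59 in the mesenchymal-like lines, 13.20 in SUM149 and 11.55 in MDA-MB-468. Other mesenchymal markers ordered the lines differently. Untreated FN1 was highest in SUM149 (8.66), and CDH2 was 10.90 in SUM149 against 5.98 in MDA-MB-231. SPARC and ZEB1 were above background on untreated arrays of mesenchymal-like lines alone, with ZEB1 missing in MDA-MB-157. Some of these markers changed with WHFs. The keratin gene KRT8 was called lower in MDA-MB-157 (9.36 to 8.07), KRT5 was called lower in MDA-MB-468 (11.10 to 9.31) and in BT-549, where it was not well above background after treatment, VIM was called lower in MDA-MB-468 (11.55 to 10.05), and the fibronectin gene FN1 was called higher in BT-549 (7.05 to 8.73). Their part in the results was not tested either. Median bead signals ran from 123 to 155 on WHF arrays and from 117 to 163 on untreated arrays, 19693 to 22456 and 20793 to 22865 probes were above background, and for 20 of 20 arrays the nearest other array was of the same group.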

How the data were processed

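The authors extracted RNA from WHF-treated and untreated cultures and read biotin-labelled RNA on Illumina HumanHT-12 beadchips with BeadStudio. One deposited table holds each array's average bead signal, an intensity without normalization, and the detection p-value that the authors' software computed. The other deposited table holds the intensity quantile normalized by the authors, and was used as an alternative. The annotation used is of another version of the array than the methods name.

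Background was removed from the bead signals in limma 3.58.1 (R 4.3.3) by normexp, using the detection p-values and an offset of 16, and signals were quantile normalized and put on the log2 scale, so a fold-change understates that of dim probes. Tests took probes above background (detection p under 0.05) on 10 or more of the 20 arrays. The number of arrays limits the precision, as there is no read depth. The 10 groups were fitted together in limma without a block. For each gene, the tested probe with the highest mean was read. The fits were tried on simulated data. Alternatives were other background, scaling, offset and detection settings, a replicate block, all probes, and leaving out each array, where a lone array is assumed to vary like the other groups.

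The members, the lists and the lines set apart were chosen with earlier results of these data known. Every member is named, with up to 5 genes per list, those called in the most lines and then with the larger mean absolute change, and up to 8 genes most like the members. The promoter windows come from RefSeq.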

Additional observations from a re-analysis of the deposited data

Results flagged for a closer look

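The response to WHFs differed between the 5 lines for 12 of the 13 tested probes of the NF-κB genes, by limma's F test of the 4 terms for line and treatment together, adjusted over all probes, where 45.7% of all genes differed. The adjusted p was 1.59e-05 for SOD2 on probes ILMN_2336781 and ILMN_2406501 and 0.00388 on ILMN_1792922. It was 8.68e-05 for NFKBIA. For NFKB2 it was 0.000229 on ILMN_1799062 and 0.00293 on ILMN_2390859. RELB gave 0.00132, TNFAIP2 0.00189, ICAM1 0.00333, NFKB1 0.00362, TNFAIP3 0.00544 and TRAF1 0.0453 on probe ILMN_1698218. In each line the same RNA was read from 2 cultures per treatment, and which lines differed from which was not tested here.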

How the results depend on the processing

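Of 65 combinations of a tested probe and a line, 16 were called, and these kept their call and direction with median scaling, without the detection filter and with the stricter one. Without background correction, and with the authors' normalized intensities, 1 gene in place of 2 was called lower in MDA-MB-231, and ICAM1 in BT-549 (0.97), RELB in MDA-MB-157 (0.71) and TRAF1 in MDA-MB-231 (−0.90) were under 2-fold. With an offset of 50, RELB in MDA-MB-157 was 0.95. With all probes, 8 probes in place of 5 genes were called higher in BT-549. Median scaling turned NFKB1 in MDA-MB-468 to 0.0722, TRAF1 (ILMN_1698218) in MDA-MB-468 to 0.0582 and SOD2 (ILMN_1792922) in SUM149 to −0.18, none called. Leaving out 1 array at a time gave 4 to 7 genes higher in BT-549, the 7 without its WHF replicate B, 2 to 3 lower in MDA-MB-231, 0 to 2 genes higher and 0 to 1 lower in SUM149 and 2 to 5 higher in MDA-MB-157, the 2 without its untreated replicate A. The changes then ran from −0.13 to 0.0195 for NFKB1, from −0.42 to 0.0844 for NFKB2 (ILMN_2390859), and from −0.18 to 0.11 and from −0.00143 to 0.14 for TRAF1 (ILMN_1698218 and ILMN_2171789) in MDA-MB-468. In SUM149 they ran from −0.40 to 0.14 for NFKBIA, from −0.18 to 0.24 for SOD2 (ILMN_1792922) and from −2.03 to 0.36 for TNFAIP3, and in MDA-MB-231 from −0.19 to 1.37 for SOD2 (ILMN_1792922). Over the 5 lines, 0 genes were called under every alternative. The labels give no more than a letter to the replicates, and the deviations of arrays with the same letter correlated at 0.0589 in BT-549, 0.299 in MDA-MB-157, 0.0399 in MDA-MB-231, 0.226 in MDA-MB-468 and 0.154 in SUM149. With the replicate letters as a block, 5 genes were called higher in BT-549 and 4 in MDA-MB-157, and 0 of the 65 calls changed. The block brought 4 changes under an adjusted p of 0.1 without reaching 2-fold, ICAM1 in SUM149 (0.0411) and MDA-MB-468 (0.0791), NFKB1 in BT-549 (0.0727) and NFKB2 (ILMN_2390859) in MDA-MB-157 (0.0920), and took none above it. The causes of these differences were not tested, and signal near background limits TNFAIP2 in BT-549 and TRAF1 in MDA-MB-157.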
